A study of Mus musculus with 12 samples.

Results

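The genes described here form the core of the G1 decision of the cell cycle: the D-type cyclins Ccnd2 and Ccnd3, their kinases Cdk4 and Cdk6, the CDK inhibitors Cdkn1a, Cdkn1b, Cdkn2c and Cdkn2d, and the pocket proteins Rb1 and Rbl2. They were chosen by name, with earlier results of these data known, and all 10 were found among the 41457 genes of each of 12 RNA-Seq libraries. The libraries came from sorted splenic Treg of mice, 3 per group, and both genotypes carried Foxp3-Cre together with an RFP reporter that marks cells in which Foxp3 is or has been active. CD18wt Treg came from littermate controls with intact CD18 alleles, and CD18Foxp3 Treg from CD18 fl/fl Foxp3-Cre mice, in which exon 3 of Itgb2, the gene of CD18, is removed in cells that express Foxp3. Every culture held 5 U/mL IL-2 overnight. The stimulated cultures also held antibodies against CD3 (1 μg/mL) and CD28 (2 μg/mL), which engage the T cell receptor and its costimulatory receptor, and the other cultures are called unstimulated. The mice were matched for age and sex, and the ages of those used for RNA-Seq were not given in the sources used here. A difference between groups of bulk libraries may come from fewer cells of a type or from less RNA per cell, and these cannot be told apart.

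A resting T cell sits before the G1 decision with little CDK4 and CDK6 activity. D-type cyclins bind CDK4 or CDK6, and the active kinase phosphorylates pRB and p130, the products of Rb1 and Rbl2, which then release the E2F factors that switch on S phase genes. The INK4 proteins p18 (Cdkn2c) and p19 (Cdkn2d) bind CDK4 and CDK6 themselves and keep cyclin D off them, while the Cip/Kip proteins p21 (Cdkn1a) and p27 (Cdkn1b) bind cyclin-CDK complexes, block CDK2 and can also hold cyclin D and CDK4 together. In resting lymphocytes p27 and p130 are known as marks of quiescence, and signals from the T cell receptor, CD28 and IL-2 drive entry into the cycle.

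The promoter of Cdk4 is printed as an example of a gene that rose on stimulation. Cdk6 and Cdkn1a rose further and also had matched promoters, which are not printed. The promoters of Ccnd3, which has 2 start sites in the reference, are printed because its intron reads were called lower on stimulation and its exon reads were not called. Sequences were taken from RefSeq on GRCm38.p6 and run from 250 bases before to 50 bases after a start site. Windows were matched for 8 of the 10 genes, 11 in all, and none for Ccnd2 and Rb1. The Cdk4 window is chr10:127063285-127063584, the upstream Ccnd3 window chr17:47504801-47505100 and the downstream Ccnd3 window chr17:47593217-47593516, all on the plus strand. Capitals mark the E-box CACGTG in Cdk4 and the FOXO core TGTTTAC in the upstream Ccnd3 window.
Cdk4: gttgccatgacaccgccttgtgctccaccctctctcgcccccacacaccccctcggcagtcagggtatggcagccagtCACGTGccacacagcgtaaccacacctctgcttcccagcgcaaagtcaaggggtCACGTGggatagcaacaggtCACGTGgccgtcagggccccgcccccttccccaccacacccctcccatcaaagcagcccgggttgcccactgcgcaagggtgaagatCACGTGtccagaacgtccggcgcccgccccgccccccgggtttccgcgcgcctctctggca
Ccnd3, upstream: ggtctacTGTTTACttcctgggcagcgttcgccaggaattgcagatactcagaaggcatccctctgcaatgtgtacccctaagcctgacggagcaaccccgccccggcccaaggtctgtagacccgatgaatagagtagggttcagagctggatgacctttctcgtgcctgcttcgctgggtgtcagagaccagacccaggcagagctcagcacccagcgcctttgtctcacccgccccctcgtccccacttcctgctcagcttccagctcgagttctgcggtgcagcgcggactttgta
Ccnd3, downstream: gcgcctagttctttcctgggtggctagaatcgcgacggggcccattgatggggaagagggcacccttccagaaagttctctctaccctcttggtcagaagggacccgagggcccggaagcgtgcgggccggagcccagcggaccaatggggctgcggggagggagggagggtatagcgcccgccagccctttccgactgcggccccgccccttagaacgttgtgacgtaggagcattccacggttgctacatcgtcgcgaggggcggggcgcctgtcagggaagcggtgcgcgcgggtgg

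The E-box is a word bound by Myc with Max and by other factors of their class, and it reads the same on both strands. The Cdk4 window held 4 copies, whose first bases lay at -172, -118, -98 and -11 from the start site. Among all 32851 promoter windows of the reference, 7.15% held at least 1 copy and 8 windows (0.0244%) held at least 4. Cdk6 held 1 copy at -220, Cdkn2c held 1 at 34 in 1 of its 2 windows, and the windows of the other matched genes, Cdkn1a among them, held none. As Cdk4 was picked among several genes that rose, the share of windows with 4 copies is a description and no test. The FOXO core was searched on both strands and was found in the upstream Ccnd3 window alone among those of the 10 genes, at -243, and in 3.65% of all windows. The E2F words TTTGGCGC, TTTCGCGC, TTTCCCGC and TTTGCCGC, also searched on both strands, were found in none of the 11 windows and in 2.26% of all. The 2 start sites of Ccnd3 lie 88416 bases apart, and of its 21 transcripts in the GENCODE M21 annotation 13 start in the first 10 kb of the gene and 8 in the last 20 kb.

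The libraries held between 10665174 and 19005482 exon reads and between 366391 and 1159670 intron reads. Levels are given as TPM, which scales reads by exon length and library and so allows levels of different genes to be compared. Fold changes come from exon reads (edgeR quasi-likelihood test, TMM normalization, adjusted p over all genes tested), and a gene was called at a fold change of at least 1.5 with an adjusted p of at most 0.01. As a check of the genotype, Itgb2 stood at 427.7 ± 39.2 TPM (SD, n = 3) in CD18wt and 240.1 ± 15.0 TPM (SD, n = 3) in CD18Foxp3 unstimulated Treg, and at 329.9 ± 1.16 and 172.0 ± 36.7 TPM (SD, n = 3 each) after stimulation, without overlap in either culture. These reads also cover the exons that are kept. Log read counts of replicates correlated at between 0.958 and 0.994. Replicate 1 of stimulated CD18Foxp3 stood furthest from its group (0.958 and 0.965, against 0.990 between the other two), and replicate 3 of unstimulated CD18wt (0.975 and 0.976, against 0.991) had the lowest depth and share of intron reads. The 6 Treg identity genes examined (Foxp3, Il2ra, Ctla4, Ikzf2, Cd4 and Cd3e) were present in every library. The summed TPM of 5 myeloid genes lay between 0.163 and 16.4. For 5 genes of CD8 T and NK cells the sum lay between 12.6 and 41.3, mostly Cd8b1, with Ncr1 listed at 0 throughout and Cd8a at 1.21 TPM or less.

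Stimulation changed most of the G1 genes, and in both genotypes the cyclin Ccnd2, the kinases Cdk4 and Cdk6 and the inhibitor Cdkn1a rose while the inhibitors Cdkn1b and Cdkn2d fell. Of the 10 genes, 7 were called in CD18wt Treg (4 higher and 3 lower) and 6 in CD18Foxp3 Treg (4 higher and 2 lower). Among all genes tested, 33.6% were called in CD18wt (18.7% higher and 14.9% lower, of 11930) and 38.6% in CD18Foxp3 (20.9% higher and 17.6% lower, of 12019). The 7 of 10 and 6 of 10 stood above these shares, but the genes were chosen with earlier results of these data known. The counts are thus no test of the set. The background of groups without overlap in TPM was larger, at 59.5% and 64.9% of 12433 genes, and 6 of the 10 in CD18wt and 7 of the 10 in CD18Foxp3 did not overlap. The counts were 7 and 6 again without the library that stood apart in each comparison. Together the 10 genes held between 607 and 704 TPM in unstimulated and between 1089 and 1244 TPM in stimulated libraries.

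**Figure D1:**
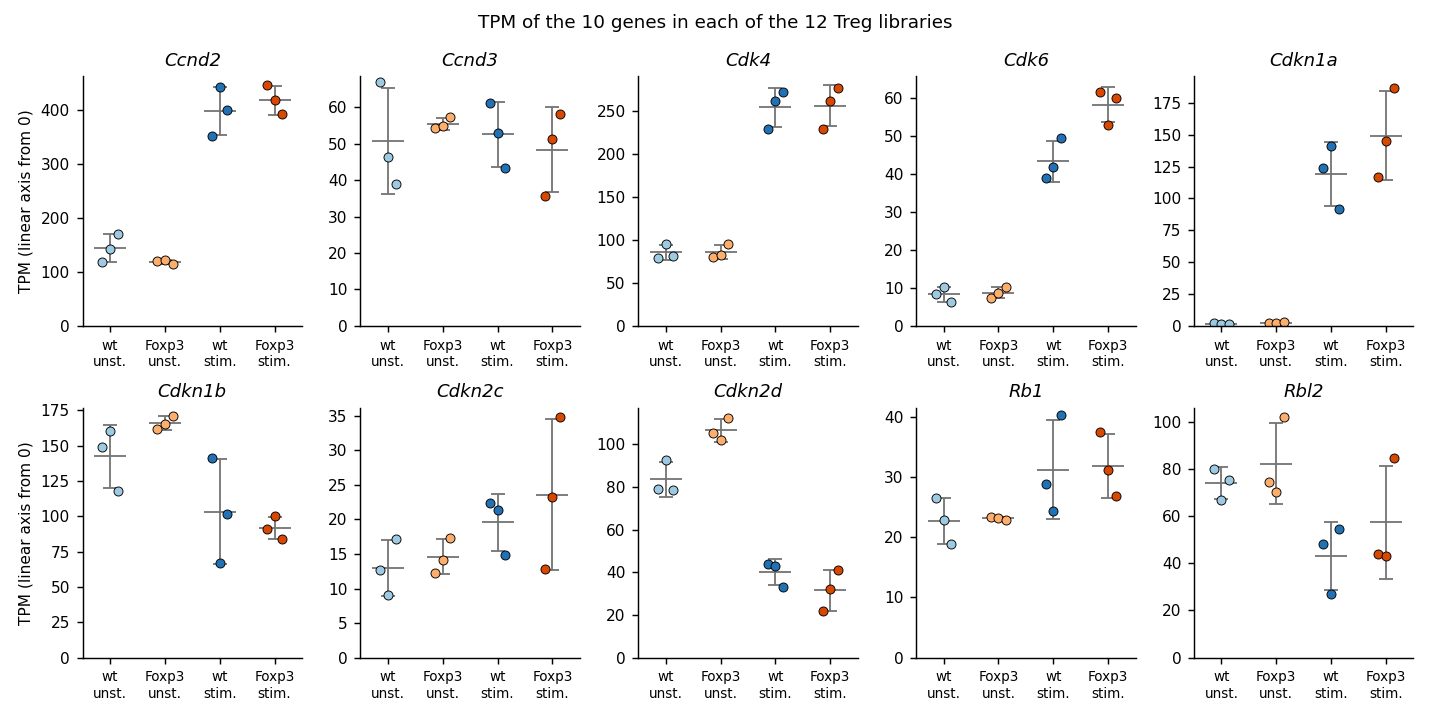
TPM (linear axis from 0) of each of the 10 genes in the 12 libraries, with points for the 3 libraries of each group, a bar for the mean and whiskers for the SD (n = 3). Ccnd2, Cdk4, Cdk6 and Cdkn1a lay higher and Cdkn2d lower in every stimulated library of either genotype, whereas Ccnd3 and Cdkn2c overlapped between cultures.

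The D-type cyclins parted on stimulation. Ccnd2 (ENSMUSG00000000184, chromosome 6, 127125162 to 127152193, minus strand) encodes cyclin D2, the D-type cyclin best known for its induction in activated lymphocytes. Its levels were 118.8, 142.3 and 170.8 TPM in unstimulated and 351.4, 441.3 and 399.7 TPM in stimulated CD18wt Treg. In CD18Foxp3 Treg they were 119.5, 121.1 and 114.1 TPM without and 444.9, 417.4 and 391.3 TPM with stimulation. All 6 stimulated libraries stood above all 6 unstimulated ones. The rise of Ccnd2 on the log2 scale was 1.06 (SE 0.19, adjusted p = 3.99e-04) in CD18wt and 1.46 (SE 0.11, adjusted p = 7.07e-06) in CD18Foxp3. It was called under every alternative and without any single library.

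Ccnd3 (ENSMUSG00000034165, chromosome 17, 47505051 to 47599691, plus strand) encodes cyclin D3, which serves the same kinases. Unstimulated CD18wt libraries held 66.9, 46.4 and 38.9 TPM and stimulated ones 61.2, 53.1 and 43.5 TPM. CD18Foxp3 libraries held 54.2, 54.9 and 57.2 TPM before and 35.5, 51.4 and 58.2 TPM after stimulation. The groups overlapped in both genotypes. From exon reads the log2 difference of Ccnd3 was -0.34 (SE 0.19, adjusted p = 0.162) in CD18wt and -0.57 (SE 0.16, adjusted p = 0.0139) in CD18Foxp3, neither past the threshold, and on the log2(TPM + 1) scale that of CD18wt turned to 0.07. In CD18Foxp3 the call of Ccnd3 depended on the fit: with a block for the replicate number the difference was -0.59 (adjusted p = 0.00377), with upper-quartile normalization -0.63 (adjusted p = 0.00799) and without stimulated replicate 3 -0.74 (adjusted p = 0.00284), and over all alternatives that kept every library its adjusted p ran from 2.25e-04 to 0.309. Of the exon reads of Ccnd3, 89.0% were placed uniquely, the lowest share among the 10 genes. Its exons share 361 bases with Bysl on the opposite strand, and the kit is not stated to keep strand, so that reads there cannot be assigned to either gene with certainty. Bysl held between 304 and 2110 exon reads a library, over all libraries 41.7% of the number of Ccnd3. The part of these reads in the values of Ccnd3 was not tested.

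Both catalytic partners rose. Cdk4 (ENSMUSG00000006728, chromosome 10, 127063534 to 127067920, plus strand), whose promoter with 4 E-boxes is printed above, held 79.0, 95.3 and 81.5 TPM in unstimulated and 228.4, 261.2 and 272.0 TPM in stimulated CD18wt Treg. The values in CD18Foxp3 Treg were nearly the same, 79.9, 81.8 and 94.7 TPM without and 229.3, 261.8 and 276.0 TPM with stimulation. Every stimulated library stood above every unstimulated one, and the log2 changes of Cdk4 were 1.18 (SE 0.14, adjusted p = 1.62e-05) and 1.22 (SE 0.11, adjusted p = 2.56e-05). Exons of Cdk4 share 641 bases with Tspan31 on the other strand, whose exon reads came to 32.4% of those of Cdk4.

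Cdk6 (ENSMUSG00000040274, chromosome 5, 3341485 to 3531008, plus strand) was the scarcer kinase and rose further. It held 8.40, 10.3 and 6.27 TPM in unstimulated CD18wt and 7.36, 8.76 and 10.3 TPM in unstimulated CD18Foxp3 Treg. After stimulation it reached 38.9, 42.0 and 49.4 TPM in CD18wt and 61.7, 53 and 60.1 TPM in CD18Foxp3 Treg. No library of one culture overlapped with the other. On the log2 scale Cdk6 rose by 1.99 (SE 0.16, adjusted p = 1.03e-06) in CD18wt and by 2.37 (SE 0.14, adjusted p = 3.32e-06) in CD18Foxp3. The ratio of Cdk4 to Cdk6 TPM within a library was 10.6 ± 2.13 and 9.81 ± 0.901 (SD, n = 3 each) in unstimulated CD18wt and CD18Foxp3 Treg, and 5.87 ± 0.360 and 4.41 ± 0.630 (SD, n = 3 each) in stimulated Treg.

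The Cip/Kip inhibitors moved in opposite directions. Cdkn1a (ENSMUSG00000023067, chromosome 17, 29090976 to 29100727, plus strand), the gene of p21, showed the largest change of the 10 genes. It was nearly silent in unstimulated Treg, with 1.95, 1.75 and 1.25 TPM in CD18wt and 1.89, 2.64 and 2.67 TPM in CD18Foxp3 libraries, which correspond to between 18 and 59 exon reads. Stimulated CD18wt libraries held 124.2, 140.9 and 92.0 TPM and stimulated CD18Foxp3 libraries 116.9, 144.7 and 186.5 TPM. Cdkn1a was 54.2-fold higher in CD18wt (log2 5.76, SE 0.25, adjusted p = 3.0e-08) and 48.5-fold higher in CD18Foxp3 (log2 5.60, SE 0.22, adjusted p = 6.52e-07). All its exon reads were placed uniquely.

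Cdkn1b (ENSMUSG00000003031, chromosome 6, 134920401 to 134925513, plus strand), the gene of p27, was one of the most abundant of the set before stimulation. Its levels in unstimulated Treg were 149.0, 160.6 and 117.8 TPM in CD18wt and 162.0, 164.9 and 171.1 TPM in CD18Foxp3 libraries. After stimulation they were 141.5, 66.9 and 101.6 TPM in CD18wt and 91.3, 99.9 and 84.0 TPM in CD18Foxp3 libraries. The CD18Foxp3 groups did not overlap, whereas in CD18wt stimulated replicate 1 lay above unstimulated replicate 3. Exon reads of Cdkn1b fell by 0.88 on the log2 scale (SE 0.20, adjusted p = 0.0036) in CD18wt and by 1.22 (SE 0.10, adjusted p = 1.7e-05) in CD18Foxp3. The call in CD18wt was lost with library totals only (-0.68, adjusted p = 0.0344), on log2(TPM + 1) (-0.51, adjusted p = 0.118), and without unstimulated replicate 1, unstimulated replicate 2 or stimulated replicate 3 (adjusted p = 0.0152, 0.0163 and 0.0163), and the adjusted p ran from 5.83e-08 to 0.125 over the alternatives that kept every library.

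The makeup of the Cip/Kip pair changed accordingly. Cdkn1a made up 1.14 ± 0.134% and 1.42 ± 0.232% (SD, n = 3 each) of the summed TPM of Cdkn1a and Cdkn1b in unstimulated CD18wt and CD18Foxp3 Treg, and 54.0 ± 11.9% and 61.4 ± 6.69% (SD, n = 3 each) in stimulated Treg. The lowest stimulated library stood at 46.8% and the highest unstimulated one at 1.57%.

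**Figure D2:**
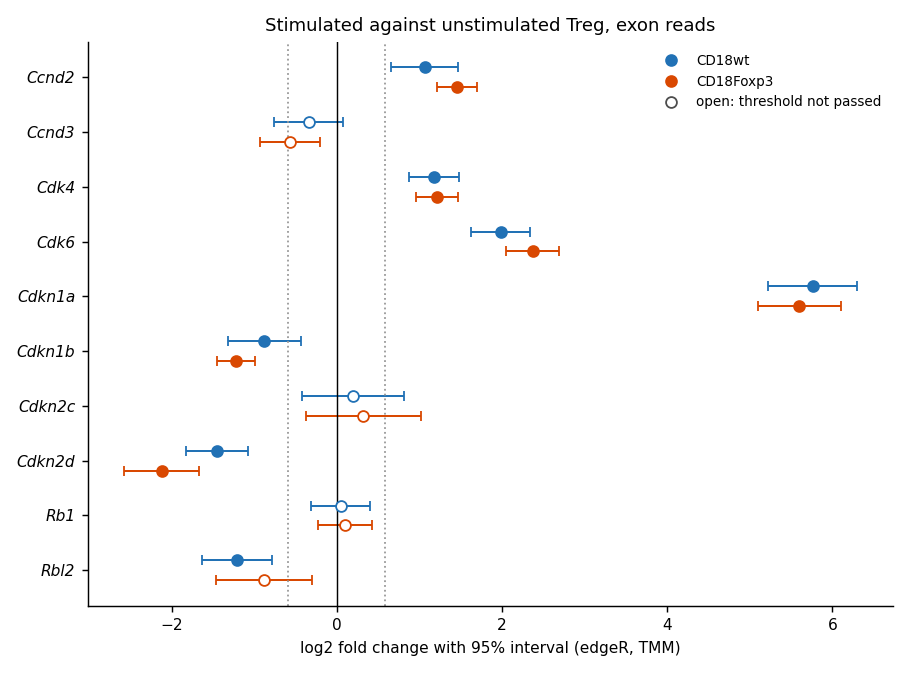
Log2 fold change of exon reads on stimulation with its 95% interval (edgeR, 3 against 3 libraries) for the 10 genes in CD18wt and CD18Foxp3 Treg; filled points passed the threshold and dotted lines mark a fold change of 1.5. Cdkn1a reached 5.76 and 5.60, Cdk6 1.99 and 2.37, and Cdkn2d stood lowest at -1.45 and -2.12.

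Of the INK4 inhibitors, the abundant one fell and the scarcer one was not called. Cdkn2d (ENSMUSG00000096472, chromosome 9, 21288410 to 21291407, minus strand), the gene of p19, held 79.1, 92.9 and 78.7 TPM in unstimulated CD18wt and 105.4, 101.9 and 112.3 TPM in unstimulated CD18Foxp3 Treg. Stimulated libraries held 44.0, 43.2 and 33.3 TPM in CD18wt and 21.9, 32.1 and 41.1 TPM in CD18Foxp3 Treg. The highest stimulated value lay below the lowest unstimulated one in both genotypes. Cdkn2d fell by 1.45 on the log2 scale (SE 0.17, adjusted p = 1.97e-05) in CD18wt and by 2.12 (SE 0.20, adjusted p = 2.78e-05) in CD18Foxp3, under every alternative.

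Cdkn2c (ENSMUSG00000028551, chromosome 4, 109660876 to 109667189, minus strand), the gene of p18, held 12.7, 9.0 and 17.1 TPM without and 22.4, 21.4 and 14.8 TPM with stimulation in CD18wt. In CD18Foxp3 it held 12.3, 14.1 and 17.3 TPM without and 12.8, 23.2 and 34.7 TPM with stimulation, so that the groups overlapped in both genotypes and the stimulated CD18Foxp3 libraries were the most spread. The log2 differences of Cdkn2c were 0.20 (95% interval -0.42 to 0.81) and 0.32 (95% interval -0.37 to 1.02), and a change of the size of the threshold lies within both intervals. It rested on between 163 and 478 exon reads a library. The ratio of Cdkn2d to Cdkn2c TPM was between 4.59 and 10.3 in the 6 unstimulated and between 1.18 and 2.25 in the 6 stimulated libraries.

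The pocket proteins also differed from each other. Rbl2 (ENSMUSG00000031666, chromosome 8, 91070057 to 91123844, plus strand), the gene of p130, held 79.8, 66.8 and 75.4 TPM in unstimulated and 48.1, 26.8 and 54.3 TPM in stimulated CD18wt Treg, which did not overlap. In CD18Foxp3 Treg the values were 74.4, 70.3 and 101.9 TPM without and 43.9, 43.2 and 84.8 TPM with stimulation, and here replicate 3 was the highest library of either culture. Rbl2 fell by 1.21 on the log2 scale (SE 0.19, adjusted p = 2.56e-04) in CD18wt. The difference in CD18Foxp3 was -0.88 (SE 0.26, adjusted p = 0.0165), which did not pass. With a block for the replicate number it was -0.94 (adjusted p = 1.27e-04) and passed, as it did without stimulated replicate 3 (-1.29, adjusted p = 2.46e-04), with DESeq2 and with no filter, and the adjusted p ran from 1.31e-09 to 0.108 over the alternatives that kept every library. On log2(TPM + 1) the call in CD18wt was lost (-0.82, adjusted p = 0.0142). Exons of Rbl2 share 693 bases with Aktip on the opposite strand, whose exon reads came to 11.7% of those of Rbl2.

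Rb1 (ENSMUSG00000022105, chromosome 14, 73183673 to 73325822, minus strand) held 26.5, 22.9 and 18.8 TPM in unstimulated and 28.9, 24.4 and 40.3 TPM in stimulated CD18wt Treg. In CD18Foxp3 it held 23.4, 23.2 and 22.8 TPM without and 37.5, 31.1 and 26.8 TPM with stimulation, the latter without overlap. After TMM normalization the log2 differences of Rb1 were 0.05 (95% interval -0.31 to 0.41) in CD18wt, where upper-quartile normalization gave -0.03, and 0.10 (95% interval -0.22 to 0.42) in CD18Foxp3, and neither was called. These intervals, after TMM, leave out a change of 1.5-fold in either direction. Over the alternatives that kept every library the difference reached 0.4383 in CD18wt and 0.4455 in CD18Foxp3, with adjusted p no lower than 0.106 and 0.0254. No intervals were taken for those fits. TPM and exon reads after TMM were on different footings here, since stimulation moved the median of all genes by 0.02 and 0.01 on the log2 scale after TMM, and by 0.36 and 0.31 on log2(TPM + 1). Rb1 shares 488 exon bases with Rcbtb2 and 408 with Lpar6, both on the opposite strand, whose exon reads came to 53.6% and 27.8% of those of Rb1. Rbl2 TPM were 3.32 ± 0.606 times those of Rb1 (SD, n = 3) in unstimulated CD18wt and 1.37 ± 0.285 times (SD, n = 3) in stimulated CD18wt Treg, and 3.56 ± 0.790 and 1.91 ± 1.09 times (SD, n = 3 each) in CD18Foxp3 Treg, where the 2 cultures overlapped.

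The scaling also set the balance of calls over all genes, though not the direction of any gene called among the 10. After TMM 2234 genes were higher and 1779 lower in CD18wt, and 2516 higher and 2120 lower in CD18Foxp3. With library totals only the split was 2849 to 1196 and 3158 to 1588, and on log2(TPM + 1) it was 3589 to 858 and 3783 to 1201. The median of all genes moved by 0.22 and 0.19 with library totals. Ccnd2, Cdk4, Cdk6, Cdkn1a and Cdkn2d were called in both genotypes under each of these scalings.

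In the order of levels, Ccnd2 (144.0 ± 26.0 TPM; SD, n = 3) and Cdkn1b (142.4 ± 22.1 TPM) led in unstimulated CD18wt Treg and were not separated by their spread, followed by Cdk4 and Cdkn2d, which likewise were not separated, and by Rbl2 and Ccnd3. Rb1, Cdkn2c and Cdk6 lay below 23 TPM on average and Cdkn1a was lowest. Unstimulated CD18Foxp3 Treg had Cdkn1b first (166.0 ± 4.64 TPM; SD, n = 3), ahead of Ccnd2 (118.2 ± 3.66 TPM) and Cdkn2d (106.5 ± 5.33 TPM), and the order from Cdk4 down was that of CD18wt. In stimulated Treg of both genotypes Ccnd2 was first, at 397.5 ± 45.0 and 417.9 ± 26.8 TPM (SD, n = 3 each), Cdk4 was second, at 253.9 ± 22.7 and 255.7 ± 23.9 TPM, and Cdkn1a, lowest without stimulation, stood next, at 119.1 ± 24.9 and 149.4 ± 35.0 TPM, not separated from Cdkn1b by its spread in CD18wt.

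Set against the inhibitors, kinase transcripts gained ground. Cdk4 and Cdk6 together held 0.389 ± 0.0259 times the summed TPM of the 4 inhibitors (SD, n = 3) in unstimulated CD18wt and 0.325 ± 0.0187 times (SD, n = 3) in unstimulated CD18Foxp3 Treg. After stimulation the ratios were 1.08 ± 0.264 and 1.07 ± 0.116 (SD, n = 3 each), with the lowest stimulated library at 0.805 and the highest unstimulated one at 0.409. The inhibitors' own sum overlapped between cultures, at 241 ± 24.8 and 290 ± 12.1 TPM without and 282 ± 46.0 and 296 ± 51.8 TPM with stimulation (SD, n = 3 each, CD18wt first), while its makeup changed from Cdkn1b and Cdkn2d to Cdkn1a and Cdkn1b. Ratios of transcripts say nothing of the proteins, which for p27 and the D-type cyclins are known to be controlled by turnover as well.

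**Figure D3:**
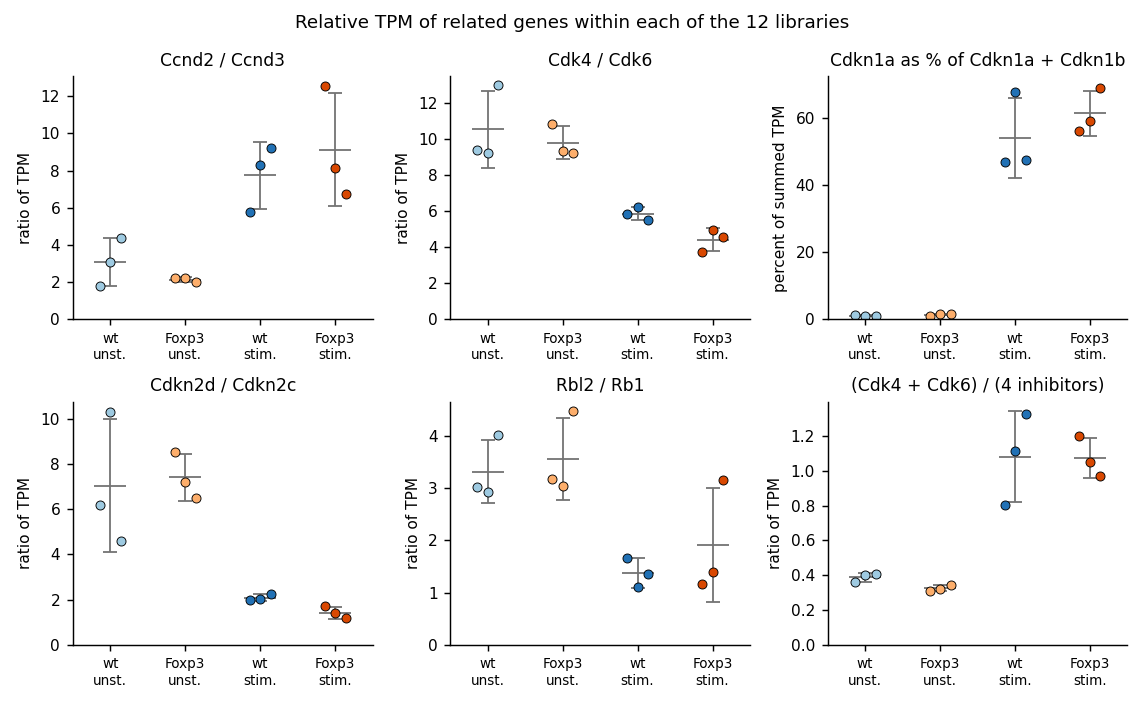
Ratios of TPM within each of the 12 libraries (linear axes from 0; for the Cip/Kip pair a percent), with points for libraries, bars for means and whiskers for the SD (n = 3). Cdkn1a rose from at most 1.57% to at least 46.8% of the Cip/Kip pair, and the kinases from at most 0.409 to at least 0.805 times the 4 inhibitors.

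Intron reads, counted by the authors beside exon reads, gave a second readout of the same libraries. In poly(A)-selected RNA they come from RNA that still holds introns, and also from exons or transcripts that the annotation lacks. Of the 10 genes, 7 had enough intron reads to be tested in CD18wt and 9 in CD18Foxp3. Called were 2 of 7 (1 higher and 1 lower), where 7.8% of 9492 genes were called (2.71% higher and 5.09% lower), and 4 of 9 (2 higher and 2 lower), where 30.4% of 10260 genes were called (15% higher and 15.4% lower). Cdkn1a was higher and Ccnd3 lower in both genotypes.

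Ccnd3 was the one gene of the set with about as many intron as exon reads. In unstimulated CD18wt libraries it held 3890, 3692 and 2730 intron reads and in stimulated ones 844, 1067 and 998. CD18Foxp3 libraries held 4380, 2571 and 3024 without and 1186, 1176 and 758 with stimulation. Introns took between 51.1% and 66.3% of the Ccnd3 reads in unstimulated and between 28.5% and 33.7% in stimulated CD18wt libraries, and between 48.1% and 56.4% and between 22.5% and 37.5% in CD18Foxp3 libraries, against between 3.32% and 5.99% over all genes. Intron reads of Ccnd3 fell by 2.44 on the log2 scale (SE 0.39, adjusted p = 5.29e-04) in CD18wt and by 2.23 (SE 0.15, adjusted p = 2.07e-19) in CD18Foxp3, although its exon reads were not called. With a block for the replicate number the adjusted p in CD18wt was 0.0143, past the limit of 0.01, at a change of -2.40, and over the other alternatives that kept every library it was as low as 3.99e-16. The tables give intron reads per gene, not per position, so that they cannot be placed relative to the 2 start sites printed above.

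Intron reads of Cdkn1a rose with its exon reads, from 9, 7 and 0 to 103, 110 and 56 reads in CD18wt and from 9, 14 and 3 to 165, 192 and 193 in CD18Foxp3 (log2 3.79, SE 0.64, adjusted p = 8.13e-04 and log2 3.86, SE 0.36, adjusted p = 5.08e-13). Without stimulated replicate 2 the call in CD18wt was lost (3.46, adjusted p = 0.0111). For Ccnd2 they rose by 0.90 (SE 0.23, adjusted p = 9.21e-04) in CD18Foxp3, a call that was lost without unstimulated replicate 2 (0.67, adjusted p = 0.0254), and stood at 1.18 (SE 0.34, adjusted p = 0.0218) in CD18wt, where they passed without unstimulated replicate 3 (1.32, adjusted p = 0.0077) and with library totals (1.60, adjusted p = 0.00356). Cdkn1b was called lower in CD18Foxp3 (-2.10, SE 0.63, adjusted p = 0.00508) on 19, 18 and 13 against 7, 6 and 4 reads. This call was lost in 6 of the 7 alternatives that kept every library (adjusted p up to 0.0430), among them the replicate block (0.0135) and library totals (0.0228). It was also lost without any 1 of the 6 libraries (adjusted p from 0.0104 to 0.0337).

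For Cdk6 in both genotypes, Rbl2 and Ccnd2 in CD18wt and Cdk4 in CD18Foxp3 the exon reads were called and the intron reads were not. Intron reads of Cdk4 in CD18Foxp3 changed by 0.96 to 1.41 over the alternatives that kept every library (adjusted p from 0.0756 to 0.397). Without 1 library they changed by 0.50 to 2.43 (adjusted p from 0.0362 to 0.613). Cdk6 held 86, 75 and 45 intron reads without and 136, 92 and 175 with stimulation in CD18wt, and 102, 86 and 137 without and 273, 162 and 165 with stimulation in CD18Foxp3 (log2 0.38, 95% interval -0.31 to 1.07 and log2 0.31, 95% interval -0.13 to 0.75). Rbl2 held 81, 71 and 36 against 99, 40 and 183 intron reads in CD18wt and 91, 61 and 98 against 205, 129 and 220 in CD18Foxp3 (log2 0.13, 95% interval -0.67 to 0.94 and log2 0.64, 95% interval 0.15 to 1.13, adjusted p = 0.0316). In these counts, not scaled for depth, the CD18Foxp3 libraries of Rbl2 did not overlap and stood higher after stimulation, whereas its exon reads stood lower on average. The share of all genes without overlap in intron reads was not taken. With library totals the median of all genes in intron reads itself moved by 0.46 in CD18Foxp3. The calls of intron reads in CD18Foxp3 depended on the scaling: Rbl2 passed with upper-quartile normalization (0.85, adjusted p = 0.00504), library totals (1.05, adjusted p = 4.18e-04) and the scaling of the exon reads (0.97, adjusted p = 9.86e-04), and without stimulated replicate 2 (0.88, adjusted p = 0.00458), and Cdk6 with library totals (0.72, adjusted p = 0.00525).

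The ratio of intron to exon reads was then tested by itself, a test added after these values had been seen (limma on log2 ratios). In CD18Foxp3, 5.59% of 9064 genes were called (1.8% lower), and of the 9 members tested the ratio of Cdk6 fell by 1.71 (SE 0.23, adjusted p = 0.00528) and that of Rbl2 rose by 1.88 (SE 0.25, adjusted p = 0.00528), while Ccnd3 stood at -1.27 (SE 0.37, adjusted p = 0.0439). In CD18wt, 0 of 8554 genes were called (0% of those tested). There, among the 7 members tested, Cdk6 stood at -1.24 (SE 0.47, adjusted p = 0.212), Rbl2 at 1.64 (SE 0.52, adjusted p = 0.166) and Ccnd3 at -1.69 (SE 0.45, adjusted p = 0.126). The median ratio of all genes moved by 0.47 in CD18wt and by 0.35 in CD18Foxp3.

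**Figure D4:**
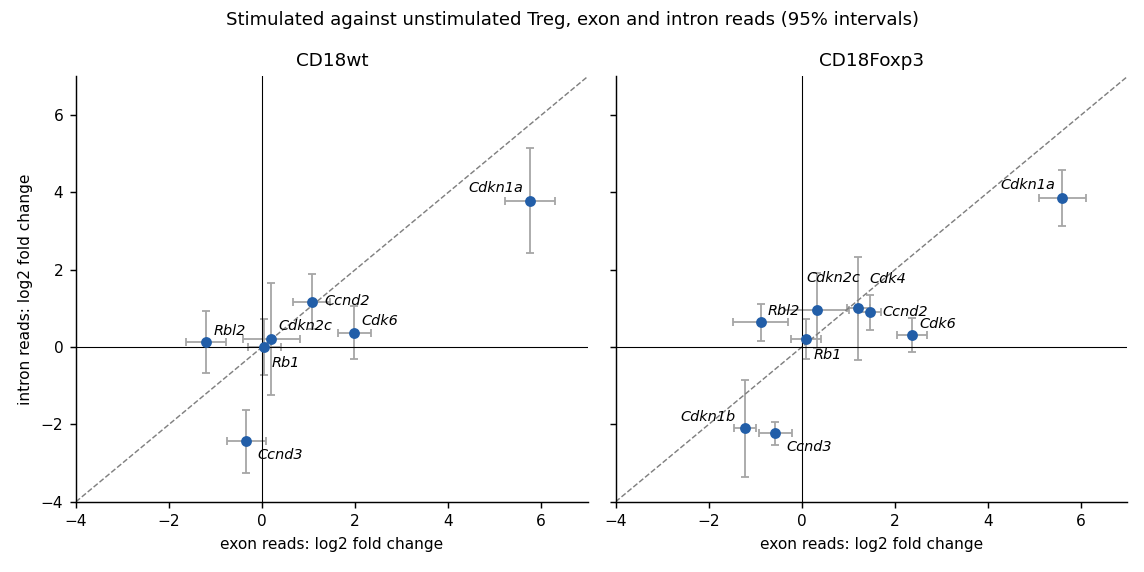
Log2 fold change on stimulation of exon reads (horizontal axis) and intron reads (vertical axis) with 95% intervals, for the genes tested in both, in CD18wt (left) and CD18Foxp3 (right); the dashed line marks equal change. Ccnd3 lies at -2.44 and -2.23 in intron reads and at -0.34 and -0.57 in exon reads, while Rbl2 lies at 0.13 and 0.64 in intron reads and at -1.21 and -0.88 in exon reads.

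The genotypes were compared within each culture. The study reports that CD18Foxp3 mice spontaneously develop inflammation of the skin and other organs and enlarged spleens. Loss of CD18 in the Treg and the state of the donor mice therefore cannot be told apart here. None of the 10 genes was called in unstimulated or in stimulated Treg, where 0.135% of 11829 genes (16, with 0.0507% higher and 0.0845% lower) and 0% of 11930 genes were called. Itgb2 itself was called lower in unstimulated Treg (log2 -0.85, adjusted p = 0.00408) but not in stimulated Treg (-0.94, adjusted p = 0.216). The stimulated comparison thus missed the deleted gene, and the absence of calls there does not show that the 10 genes were alike. Of the members, 2 (Ccnd2 and Cdkn2d) had an unadjusted p under 0.05 in unstimulated and 1 (Cdk6) in stimulated Treg, and DESeq2 called none of them. Over all genes, 1134 of 11829 in the unstimulated and 583 of 11930 in the stimulated comparison had an unadjusted p under 0.05. In the stimulated comparison DESeq2 called 22 genes, and limma 0 on log2(TPM + 1) and 1 on log2(TPM + 0.1).

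In unstimulated Treg the CD18Foxp3 libraries stood above the CD18wt ones without overlap for Cdkn2d and Cdkn1b, as did 15% of 12433 genes in either direction. Their log2 differences were 0.33 (95% interval 0.12 to 0.53, adjusted p = 0.217) for Cdkn2d and 0.20 (95% interval -0.01 to 0.41, adjusted p = 0.541) for Cdkn1b. Ccnd2 stood at -0.31 (95% interval -0.62 to -0.01, adjusted p = 0.501), and Cdkn1a at 0.50 with the widest interval, from -0.25 to 1.26, on its few reads. For Ccnd3, Cdk4, Cdk6, Cdkn1b, Cdkn2d, Rb1 and Rbl2 the interval lay within 1.5-fold in either direction, and for Cdk4 it ran from -0.23 to 0.19.

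In stimulated Treg the 3 CD18Foxp3 libraries stood above the 3 CD18wt libraries for Cdk6 alone, where 9.24% of 12433 genes did not overlap in either direction. The difference of Cdk6 was 0.44 (95% interval 0.10 to 0.78, adjusted p = 0.902). The summed TPM of 12 genes of S phase and mitosis also stood apart in these libraries, between 1716 and 1747 in CD18wt and between 1880 and 2140 in CD18Foxp3, although none of the 12 was called, and its part in the difference of Cdk6 was not tested. Rbl2 stood at 0.45 (95% interval -0.19 to 1.08) and Cdkn2d at -0.34 (95% interval -0.90 to 0.21), while Cdk4 (0.02, 95% interval -0.31 to 0.35), Rb1 (0.05) and Ccnd2 (0.08) lay near 0.

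Whether stimulation acted differently in the genotypes was tested by the interaction on all 12 libraries, in which 0 of 12636 genes passed (0% of those tested; 485 with an unadjusted p under 0.05, and 1 each by DESeq2 and by limma on both TPM scales). Among the 10 genes Cdkn2d was furthest from 0, at -0.67 (95% interval -1.25 to -0.10, adjusted p = 0.987), the larger fall being in CD18Foxp3, and it was the only one with an unadjusted p under 0.05. Ccnd2 (0.39), Cdk6 (0.38) and Cdkn1b (-0.35) had intervals that included 0. The call of Rbl2 in CD18wt and its absence in CD18Foxp3 were not shown to differ (interaction 0.32, 95% interval -0.49 to 1.14).

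**Figure D5:**
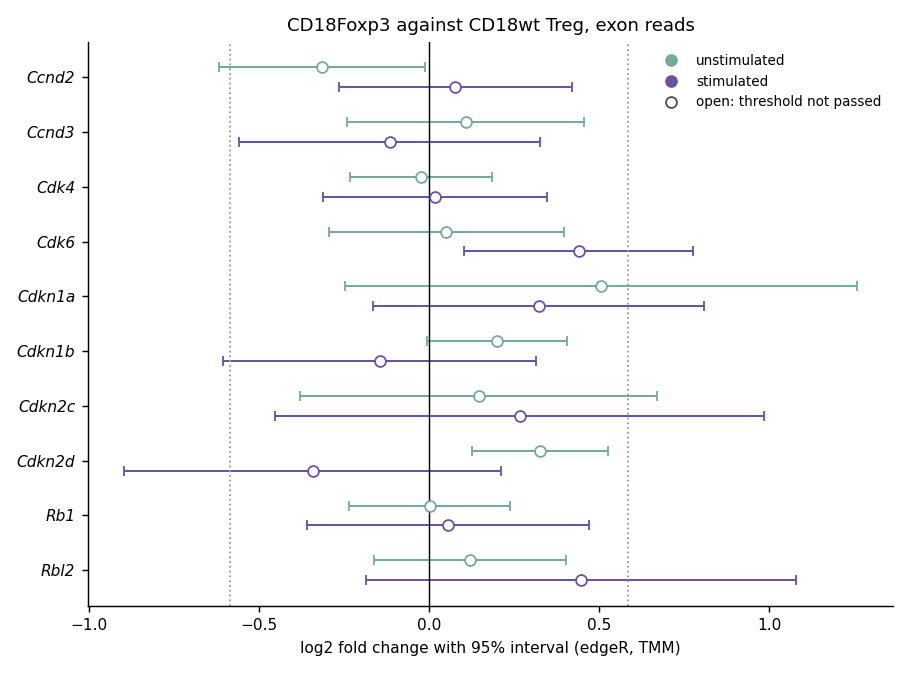
Log2 fold change of exon reads in CD18Foxp3 against CD18wt Treg with 95% intervals (edgeR, 3 against 3 libraries) in unstimulated and stimulated cultures; dotted lines mark a fold change of 1.5 and open points did not pass the threshold. No point passed, and intervals apart from 0 were those of Ccnd2 and Cdkn2d without and Cdk6 with stimulation.

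Genes that work beside the 10 were read as lists, each given by its counts over stimulation and its median log2 change, where the median of all genes tested was 0.02 in CD18wt and 0.01 in CD18Foxp3 and the share of genes called was 33.6% (18.7% higher and 14.9% lower) and 38.6% (20.9% higher and 17.6% lower). None of them had a gene called between genotypes in either culture. Among other G1 cyclins and kinases, 4 of 7 tested rose in CD18wt (median 1.89) and 6 of 8 in CD18Foxp3 (median 1.25), with none lower. Those with the largest changes were Ccne2 (4.59 and 3.41) and Ccne1 (3.31 and 2.76), the cyclins E that act with CDK2 at the entry into S phase, the phosphatase gene Cdc25a (2.03 and 1.75), and Cdk2 (1.89 and 1.65).

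No other CDK inhibitor gene was called in either genotype (0 of 4 tested in each). Cdkn2a stood at 2.13 and 1.60, Cdkn2b at 1.51 and 1.66, Cdkn1c at -0.66 and -1.18 and Cdkn3 at 0.49 and 0.16 on the log2 scale, with standard errors between 0.51 and 0.71. Cdkn2a was scarce, at between 0.705 and 10.5 TPM on average over the groups.

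Downstream of the pocket proteins, 7 of 11 genes of E2F and DP factors and of the pocket protein p107 rose in each genotype, none fell, and the medians were 1.02 and 1.08. E2f7 (4.82 and 4.17) and E2f8 (3.44 and 3.65), which encode repressors made in S phase, and E2f1 (3.10 and 2.58) and E2f3 (2.16 and 2.68), which encode activators, changed most. None was called among 5 genes of the MuvB core (medians 0.06 and 0.14), with which p130 forms the DREAM repressor of quiescent cells. Of 12 genes of S phase and mitosis 11 rose in each genotype (medians 2.81 and 2.68), led by Cdk1 (3.93 and 3.95), Rrm2 (3.58 and 3.46), Ccna2 (3.75 and 3.20) and Ccnb1 (3.14 and 3.74). The summed TPM of these 12 lay between 324 and 468 in unstimulated and between 1716 and 2140 in stimulated libraries, so that transcripts of cycling cells moved with stimulation beside all the changes above. The part of these transcripts in the results on the 10 genes was not tested.

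Among 7 genes of ubiquitin ligases that turn over p27 or G1 cyclins, 3 rose in CD18wt and 4 in CD18Foxp3 (medians 0.57 and 0.64). Among them were Skp2 (3.41 and 3.07) and Cks1b (2.44 and 2.83), parts of the ligase that marks p27 for degradation, and Fbxw7 (0.70 and 0.79), which acts on cyclin E, with Cul1 in CD18Foxp3 (0.64; 0.57 without a call in CD18wt). Of 8 genes of FOXO factors, known to activate Cdkn1b and Rbl2 in resting lymphocytes, and of the antiproliferative BTG family, 4 fell and 1 rose in CD18wt and 5 fell and 1 rose in CD18Foxp3 (medians -0.73 and -1.21). Btg1 (-1.91 and -2.06), Btg2 (-1.68 and -1.39) and Foxo1 (-1.39 and -1.23) were lower and Btg3 (1.20 and 1.23) was higher. Of 10 genes of the p53 response, to which Cdkn1a belongs, 5 rose in each genotype and 1 fell in CD18wt (medians 0.97 and 1.06). Phlda3 (3.33 and 2.42), Zmat3 (1.71 and 1.95), Sesn2 (1.76 and 1.86) and Aen (1.44 and 1.29) rose, each by less than Cdkn1a.

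Markers of other cells also moved with stimulation, at low levels. The summed TPM of the CD8 T and NK cell genes ranged from 25.5 to 41.3 in unstimulated and from 12.6 to 26.0 in stimulated libraries, that of the myeloid genes from 1.58 to 16.4 and from 0.163 to 2.17, and that of 5 erythroid genes from 1.83 to 58.1 and from 0.234 to 4.04. Within a genotype the stimulated libraries lay below the unstimulated ones for each of these sums, except for the erythroid genes in CD18wt, which overlapped. The sum of the Treg identity genes ranged from 1336 to 1662 in unstimulated and from 2214 to 3678 in stimulated libraries. Of these 6 genes 1 was called higher and 2 lower in CD18wt, and 3 higher and 2 lower in CD18Foxp3. Il2ra rose by 2.27 and 3.13 on the log2 scale. In CD18Foxp3 Ctla4 rose by 1.94 and Ikzf2 by 0.90 (1.02 and 0.35 without a call in CD18wt). Cd4 (-1.15 and -1.25) and Cd3e (-0.87 and -0.92) fell in both genotypes, and Foxp3 was called in neither (0.37 and 0.53). Among genes of B cells, Cd79b, chosen after its values were seen, ranged from 21.5 to 29.2 TPM in unstimulated and from 8.17 to 18 TPM in stimulated libraries and fell by 1.48 and 1.81, while Ighm was listed at 0 throughout. The part of these sums in the results on the 10 genes was not tested.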

How the data were processed

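RNA-Seq of 12 sorted Treg samples (3 biological replicates per genotype and culture, per the labels) was analysed from the tables of 41457 genes deposited per library. The authors mapped single-end reads from poly(A)-selected RNA to GRCm38 with CLC Genomics Workbench and deposited counts of exon, unique and intron reads per gene, with TPM. The labels do not state that the kit kept strand. The study plots its replicates as individual mice.

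Exon and intron counts were tested with edgeR 4.0.16 (quasi-likelihood F-test, robust, TMM) in R 4.3.3 after filtering at a minimum count of 10, each comparison on its own 6 libraries and the interaction on 12. P-values were Benjamini-Hochberg adjusted over all genes tested, and the calling limits of the study were kept (1.5-fold, adjusted p 0.01). Standard errors were derived from the F statistic. TPM groups were compared for overlap over genes above 1 TPM in at least 3 libraries. Ratios of intron to exon reads (0.5 added) were tested with limma 3.58.1 and TPM likewise (1 or 0.1 added). DESeq2 1.42.0, other normalizations and filters, uniquely placed reads, a fit of all 12 libraries, a replicate block and leaving out each library served as alternatives. The edgeR fits of the 4 comparisons of exon reads were run on simulated data in which few genes changed, equally in both directions. Such data do not check the scaling where many genes change, as on stimulation.

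Identifiers of the deposited tables recurred between the 2 cultures of a genotype in the order of the replicate numbers, which the labels do not state to be pairs, so a replicate block was fitted as an alternative and the main fits were unpaired. Deviations from group means of same-numbered libraries correlated over 8860 genes at 0.180, -0.119 and -0.121 in CD18wt and at 0.199, 0.021 and 0.296 in CD18Foxp3.

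All 10 genes were named throughout, and of each other list at most the 4 tested genes with the largest mean absolute change over both stimulation comparisons. Marker genes of cell types were named without regard to this rule. The genes and lists were chosen with earlier results of these data known. Intervals cover the spread between these samples. The result of 1 marker list is not reported here.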

Additional observations from a re-analysis of the deposited data

How the results depend on the processing

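With 3 libraries per group, the genotype comparisons and the interaction gave 0 of the 10 genes under every alternative run, and stimulation gave between 5 and 7 in CD18wt and between 6 and 8 in CD18Foxp3. In CD18wt the count was 6 with library totals and 5 on both TPM scales. In CD18Foxp3 it was 8 with the replicate block, and the block changed no other call of exon reads among the 10. For intron reads the replicate block left 1 gene called in CD18wt, and leaving out 1 library gave between 1 and 3. The fit of all 12 libraries left 2 in CD18Foxp3, and leaving out 1 library gave between 2 and 4. Of the single-gene values under alternatives, 972 kept direction and call, 24 lost the call, 17 gained it and 56 changed sign. None of the sign changes belonged to a gene called in the main fit of the same comparison and read type, and the cause was not tested.

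Sign changes with all libraries kept were those of stimulation in CD18wt for Rb1 with upper-quartile normalization (-0.033) and Ccnd3 on log2(TPM + 1) and log2(TPM + 0.1) (0.072 and 0.074), of genotype in unstimulated Treg for Cdk4 with uniquely placed reads (0.00049) and on both TPM scales (0.00395 and 0.0040) and Rb1 with uniquely placed reads (-0.017), of the interaction for Cdkn2c on both TPM scales (-0.013 and -0.024), and of intron reads of Rb1 in CD18wt without a filter (-0.061) and in the fit of all 12 libraries (-0.0017).

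Leaving out 1 library, the following log2 values crossed 0. For stimulation, Cdkn2c ranged from -0.033 to 0.493 and Rb1 from -0.144 to 0.153 in CD18wt, and Cdkn2c from -0.084 to 0.598 and Rb1 from -0.074 to 0.199 in CD18Foxp3. For genotype in unstimulated Treg, Cdkn2c ranged from -0.079 to 0.431, Cdk6 from -0.084 to 0.216, Rbl2 from -0.038 to 0.209, Cdk4 from -0.086 to 0.045, Rb1 from -0.082 to 0.113 and Ccnd3 from -0.021 to 0.342. In stimulated Treg, Cdkn2c ranged from -0.132 to 0.557, Ccnd2 from -0.018 to 0.225, Cdkn1b from -0.342 to 0.137, Cdk4 from -0.065 to 0.101, Rb1 from -0.101 to 0.237 and Ccnd3 from -0.278 to 0.051. For the interaction, Cdkn2c ranged from -0.278 to 0.413, Rbl2 from -0.083 to 0.501, Cdk4 from -0.055 to 0.142, Rb1 from -0.107 to 0.224 and Cdkn1a from -0.366 to 0.069. For intron reads in CD18wt, Cdkn2c ranged from -0.132 to 0.508, Rbl2 from -0.161 to 0.422 and Rb1 from -0.168 to 0.245, and in CD18Foxp3 Rb1 from -0.099 to 0.324.

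Between genotypes the libraries shared only a number. Their deviations correlated at between 0.026 and 0.161 in unstimulated and between -0.248 and -0.116 in stimulated Treg, and a replicate block gave 41 genes in place of 16 and 1 in place of 0 over all genes. In unstimulated Treg DESeq2 gave 86, no filter 134, an adjusted p limit of 0.05 33, the fit of all 12 libraries 0, the TPM scales 1 and 5, and leaving out 1 library between 0 and 44. Without a filter 61 genes passed in stimulated Treg and 31 in the interaction. For intron reads in CD18wt, 740 genes were called after TMM (257 higher and 483 lower), 188 with the replicate block, 196 with the scaling of the exon reads, 1692 at an adjusted p limit of 0.05, 1119 without a filter, 477 with at least 10 reads in every library, 1729 in the fit of all 12 libraries and as few as 159 without 1 library (stimulated replicate 3), and the split was 356 to 336 with upper-quartile normalization and 553 to 201 with library totals. In CD18Foxp3, where at least 10 reads in every library left 1973 genes and the fit of all 12 libraries 1897 of 3117, the splits were 1539 to 1578, 1998 to 1165 and 2637 to 899. On log2(TPM + 0.1) the split of exon calls was 3550 to 827 in CD18wt and 3817 to 1180 in CD18Foxp3, and the median of all genes moved by 0.42 and 0.35.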
